A study of Homo sapiens with 10 samples.

Results

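The 9 genes described here, which make glutathione, bring in the cystine it is made from, recycle it or spend it on peroxides, were followed across a pair of human lung cancer lines. These members were GCLC, GCLM, GSS, GSR, SLC7A11, SLC3A2, GPX1, GPX2 and GPX4, picked by symbol, 9 of 58037 gene identifiers in the expression tables. A549 is a lung adenocarcinoma line, and A549/DDP is its counterpart resistant to cisplatin (DDP). Both lines were grown in RPMI medium with fetal bovine serum and antibiotics, at 10 passages or fewer, and no label gives a drug to the cells that were sequenced. A549/DDP came to the study as a gift from another laboratory, so 1 resistant line was compared with 1 parent line, and what belongs to the line cannot be told apart from what belongs to resistance. In the labels of the A549/DDP inputs the cell line field reads A549, whereas the titles and the cell type field name the resistant cells, and the titles were followed. Each line had 2 input libraries, used here for RNA levels, and 2 m6A-seq libraries, in which RNA fragments are enriched with an antibody against N6-methyladenosine and peaks of that enrichment are called. Nothing says that replicates came from separate cultures, so the p-values measure the spread between these libraries, which may be technical.

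Glutathione is the most abundant small thiol of animal cells. Glutamate-cysteine ligase joins glutamate and cysteine in the step that limits its synthesis. GCLC is the catalytic subunit of that ligase and GCLM its modifier subunit, and glutathione synthetase (GSS) adds glycine. Cysteine is often the scarce substrate, and the exchanger made of the light chain SLC7A11 (xCT) and the heavy chain SLC3A2 (4F2hc, CD98) imports its oxidised dimer, cystine. Glutathione peroxidases pass electrons from glutathione to peroxides, and glutathione reductase (GSR) returns the oxidised form to the reduced one. GPX1 acts in the cytosol on soluble peroxides, GPX2 is best known from the gut epithelium, and GPX4 reduces lipid peroxides in membranes and so holds back ferroptosis, a form of cell death that feeds on them. Several of these genes are textbook targets of the transcription factor Nrf2, which is encoded by NFE2L2 and held in check by KEAP1.

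The A549 inputs held 34570074 and 35286514 expected counts and the A549/DDP inputs 29225501 and 33971561, and replicate libraries lay apart by far more than counting noise (chi-square per degree of freedom 83.1 in A549 and 53.6 in A549/DDP). A second pair of A549 inputs, with 855034 and 982036 counts of which 75.2% and 73.9% were mitochondrial, entered only as an alternative. The summed TPM (a level scaled for transcript length and library size) of 5 epithelial markers was 3684 and 7921 in A549 and 14741 and 14736 in A549/DDP, nearly all of it KRT8 and KRT18. EPCAM stood at only 2.45 to 6.95 TPM and KRT19 at 0 in A549/DDP replicate 2. The sums of leukocyte (at most 4.86), fibroblast (at most 16.7) and endothelial (at most 0.40) markers were low in all 4 inputs. The epithelial sum thus differed between the lines, and between the A549 replicates, in the order in which GPX2, GCLM, GSR and GCLC did. SLC7A11 did so in CPM (counts scaled to library size) but not in TPM. Its TPM was 37.7 and 46.2 in A549 and 37.0 and 57.5 in A549/DDP. GPX1, GPX4, GSS and SLC3A2 did not follow this order, and all of them were lower in A549 replicate 2 than in replicate 1. The part of the epithelial sum in these results was not tested. In such bulk RNA, fewer expressing cells and less RNA per cell cannot be told apart.

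GPX2, GCLM and GPX1 were higher in A549/DDP, by 13.6-fold, 3.07-fold and 2.35-fold, and the other 6 members did not pass the test. No member passed it in the direction of A549. That is 3 of 9 members (33.3%) with an adjusted p under 0.05 (quasi-likelihood test of edgeR, Benjamini-Hochberg adjustment), against 14.9% of the 16406 genes tested, of which 6.85% were higher and 8.00% lower in A549/DDP. The median log2 fold change of the 9 members was 0.48, with 7 above 0 and 2 below, beside -0.0016 for all genes tested. The libraries of the lines did not overlap for 8 of the 9 members (6 higher in A549/DDP), beside 62.4% of all genes tested. For a single gene, an exact permutation test of 2 libraries against 2 could not go below a two-sided p of 0.333, so the tests rest on the spread estimated across all genes.

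**Figure D1:**
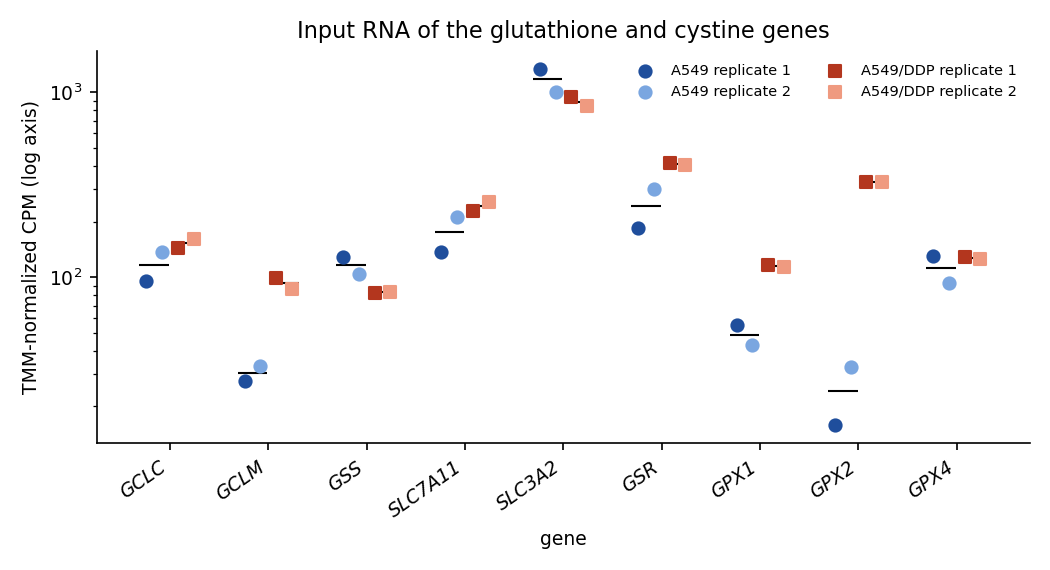
CPM (counts scaled to library size, TMM-normalized, log axis) of each member in the 4 input libraries, circles for A549, squares for A549/DDP and a bar for the mean of each line. GPX2 rose from 15.8 and 32.5 to 329 and 328, and GCLM and GPX1 also had both squares well above both circles, while the symbols of GPX4 overlap.

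For the first enzyme of synthesis, the 2 subunits differed in how far apart the lines were. GCLC (ENSG00000001084.10) had 95.5 and 137 CPM (counts scaled to library size, after TMM) in A549 replicates 1 and 2 and 144 and 162 CPM in A549/DDP. All A549/DDP values were above all A549 values, but A549 replicate 2 nearly reached them. Its log2 fold change of 0.39 (standard error 0.22) did not pass (adjusted p = 0.295 by edgeR). GCLM (ENSG00000023909.9) had 27.5 and 33.0 CPM in A549 and 99.1 and 86.9 CPM in A549/DDP. The lines lay far apart and the replicates of each close together. The mean rose from 30.2 ± 3.83 to 93.0 ± 8.65 CPM (SD, n = 2), a log2 difference of 1.62 (standard error 0.22, adjusted p = 0.00879 by edgeR). The difference between the changes of GCLM and GCLC was itself not tested.

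GSS (ENSG00000100983.9), which completes the tripeptide, had a difference of the opposite sign, at 129 and 104 CPM in A549 against 82.7 and 82.8 CPM in A549/DDP. Both A549/DDP libraries lay below both A549 libraries. The log2 fold change of -0.49 (standard error 0.19) did not pass (adjusted p = 0.140, edgeR with Benjamini-Hochberg adjustment). Against the second pair of A549 inputs, where GSS had 1 count in each library, the sign turned (3.31). With that sign GSS passed the threshold there (adjusted p = 0.00171 by edgeR). GSR (ENSG00000104687.12), the reductase, had 185 and 299 CPM in A549 and 413 and 406 CPM in A549/DDP. The A549/DDP libraries were nearly equal and above both A549 libraries, which were far apart. Its log2 fold change of 0.76 (standard error 0.25) missed the threshold (adjusted p = 0.0935 by edgeR). It passed under 7 of 15 alternatives, among them DESeq2 (adjusted p = 0.00908) and the fits without an A549 replicate (adjusted p = 0.0234 without replicate 1 and 7.8e-08 without replicate 2, edgeR). It did not pass without A549/DDP replicate 1 (adjusted p = 0.219) or replicate 2 (adjusted p = 0.194) or with both pairs of A549 inputs (adjusted p = 0.200) in edgeR, nor in the limma fits (adjusted p from 0.162 to 0.233). Its log2 fold change without 1 library ran from 0.44 to 1.13.

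The light and heavy chain of the cystine exchanger differed between the lines with opposite signs, and neither passed the test. SLC7A11 (ENSG00000151012.13) had 137 and 212 CPM in A549 and 229 and 257 CPM in A549/DDP, a log2 difference of 0.48 (standard error 0.24, adjusted p = 0.235 by edgeR). SLC3A2 (ENSG00000168003.16) had 1345 and 1006 CPM in A549 and 943 and 840.0 CPM in A549/DDP, a log2 difference of -0.40 (standard error 0.19, adjusted p = 0.206 by edgeR). For both genes A549 replicate 2 lay close to A549/DDP and replicate 1 away from it. For SLC7A11 an antisense gene overlaps the locus, and whether counting used the strand is not given in the sources used here.

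Of the 3 peroxidases, GPX2 (ENSG00000176153.11) had the highest fold of any member, at 15.8 and 32.5 CPM in A549 and 329 and 328 CPM in A549/DDP. The A549 replicates lay apart, and both were far under the nearly equal A549/DDP libraries. The mean rose from 24.2 ± 11.8 to 329 ± 1.27 CPM (SD, n = 2), a log2 difference of 3.76 (standard error 0.37, adjusted p = 0.00392, edgeR with Benjamini-Hochberg adjustment). GPX1 (ENSG00000233276.3) had 55.0 and 43.0 CPM in A549 and 117 and 113 CPM in A549/DDP. The mean rose from 49.0 ± 8.50 to 115 ± 2.29 CPM (SD, n = 2), a log2 difference of 1.23 (standard error 0.21, adjusted p = 0.0157 by edgeR). GPX1 has pseudogene copies of near-identical sequence, so some of its reads may have been assigned elsewhere. GPX4 (ENSG00000167468.16) had 130 and 93.6 CPM in A549 and 129 and 126 CPM in A549/DDP. Its lines overlapped, and its log2 fold change was 0.19 (standard error 0.21, adjusted p = 0.617 by edgeR).

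How many members passed depended on single libraries, and so did the count over all genes, as given below. For 7 of the 9 members A549 replicate 2 was nearer than replicate 1 to the A549/DDP mean, beside 54.3% of all genes tested. Without A549 replicate 2, the log2 fold changes of GSS (-0.66), SLC3A2 (-0.61) and SLC7A11 (0.81) were larger in size than in the reported fit. Without A549 replicate 1, those of GSS (-0.34), SLC3A2 (-0.19) and SLC7A11 (0.18) were smaller. In each of these fits the lone library of a line was assumed to vary like the libraries of the other line. GPX2 passed under all 15 alternatives, with a log2 fold change between 3.32 and 4.71, GPX1 under 14 and GCLM under 13. GCLM missed the threshold in edgeR with the second pair of A549 inputs (adjusted p = 0.0654), which held 3 and 7 counts of it, and with both pairs (adjusted p = 0.0684), where GPX1 missed it too (adjusted p = 0.0835).

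**Figure D2:**
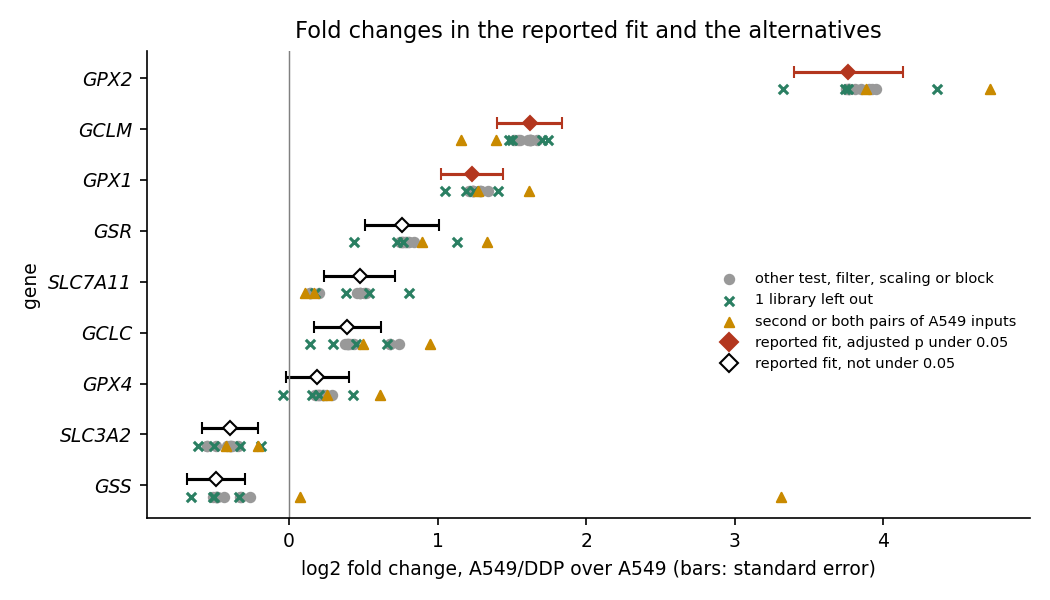
Log2 fold change of A549/DDP over A549 for each member, with diamonds and standard error bars for the reported fit (filled where the adjusted p was under 0.05) and small symbols for 15 alternatives. GPX2, GCLM and GPX1 stayed to the right of 0 under every alternative, GSS turned with the second pair (3.31) and with both pairs of A549 inputs (0.0759), and GPX4 turned without A549 replicate 2 (-0.0405).

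Levels of different genes were compared per transcript length, in TPM. In A549 the order was SLC3A2 (2376 ± 378, SD, n = 2), GPX4 (304 ± 36.2), GSR (237 ± 127), GCLC (186 ± 49.0), GSS (107 ± 16.6), GPX1 (83.9 ± 6.02), GPX2 (71.0 ± 43.6), SLC7A11 (41.95 ± 5.98) and GCLM (31.9 ± 9.68). Neighbours from GPX4 to GCLC and from GPX1 to GCLM overlapped between libraries, so their order was not resolved. In A549/DDP the order was SLC3A2 (1614 ± 149), GPX2 (973 ± 26.0), GSR (379 ± 5.34), GPX4 (355 ± 2.88), GCLC (294 ± 25.1), GPX1 (205 ± 8.20), GCLM (90.9 ± 2.74), GSS (84.6 ± 2.45) and SLC7A11 (47.3 ± 14.5), and no neighbours overlapped. By the means GPX2 stood at place 7 in A549, where its place was not resolved (40.2 and 102 TPM), and at place 2 in A549/DDP. In both lines the catalytic subunit GCLC stood above its modifier GCLM, and the heavy chain SLC3A2, which also serves other amino acid carriers, stood far above SLC7A11.

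The expression tables also give for each gene a transcript length weighted by isoform abundance. This length did not overlap between the lines for 3 of 9 members, as for 30.5% of all genes tested. It was longer in A549/DDP for SLC3A2 (878 ± 47.8 to 979 ± 22.5 bases, SD, n = 2) and shorter for GSS (1804 ± 167 to 1637 ± 60.8) and GPX2 (666 ± 18.5 to 647 ± 4.32). For SLC7A11 it varied more between replicates than between lines, at 5361 and 7708 bases in A549 and 9645 and 7048 in A549/DDP, and its TPM (37.7 and 46.2, then 37.0 and 57.5) and CPM ordered the libraries differently. With 1 library left out the count of members without overlap ran from 4 to 8, where 1 library fixes a line's range.

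Promoter windows were read for the members that rose and set beside SLC3A2, to show where the core of the antioxidant response element lies, the letters to which Nrf2 binds with a small Maf partner. The core was searched as TGACNNNGC on either strand, which on the other strand reads GCNNNGTCA, in RefSeq windows of 300 bases (250 before and 50 after a transcript start, GRCh38.p14). Of 35116 such windows of all genes, 13.3% held it. RefSeq windows were read for 6 members (10 windows). None was read for GSS, GSR and SLC7A11, so whether their promoters hold the core was not tested. The core was in the window of GCLM, 34 to 26 bases before the start, in that of GPX2, 122 to 114 bases before the start, and in 1 of 3 windows of SLC3A2, 37 to 29 bases before the start, and not in those of GCLC, GPX1 and GPX4. So 2 of the 3 members that rose held it, as did a start of SLC3A2, which did not pass the test. A match describes letters and is not evidence of binding, and a window without one says only that these letters are not in it. The 250 bases before the start follow, 5′ to 3′ on the strand of the gene, with the core in capitals, for the 3 windows that hold it and for GPX1, which rose and has none.
GCLM, chr1:93909431-93909680, minus strand: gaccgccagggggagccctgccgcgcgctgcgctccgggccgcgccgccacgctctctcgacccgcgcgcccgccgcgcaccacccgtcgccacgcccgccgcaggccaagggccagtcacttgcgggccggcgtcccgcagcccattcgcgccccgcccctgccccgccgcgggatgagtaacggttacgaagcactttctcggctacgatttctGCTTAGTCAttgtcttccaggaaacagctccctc
GPX2, chr14:64942746-64942995, minus strand: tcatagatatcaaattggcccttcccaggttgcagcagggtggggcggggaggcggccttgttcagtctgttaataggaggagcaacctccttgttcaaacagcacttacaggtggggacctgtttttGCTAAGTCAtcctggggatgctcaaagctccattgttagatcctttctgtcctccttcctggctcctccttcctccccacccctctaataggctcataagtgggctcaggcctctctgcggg
SLC3A2, chr11:62881449-62881698, plus strand: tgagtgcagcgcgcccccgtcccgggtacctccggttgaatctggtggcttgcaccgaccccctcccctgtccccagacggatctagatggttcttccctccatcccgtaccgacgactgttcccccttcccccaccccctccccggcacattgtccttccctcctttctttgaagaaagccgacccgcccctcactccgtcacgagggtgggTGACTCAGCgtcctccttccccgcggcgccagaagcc
GPX1, chr3:49358354-49358603, minus strand: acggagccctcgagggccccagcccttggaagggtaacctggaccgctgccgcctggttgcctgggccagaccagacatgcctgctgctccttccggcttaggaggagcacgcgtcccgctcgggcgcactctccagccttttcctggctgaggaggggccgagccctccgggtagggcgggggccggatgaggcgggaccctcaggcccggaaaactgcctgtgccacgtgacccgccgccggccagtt
GCLM and GPX2 both carry the core in the orientation GCNNNGTCA (GCTTAGTCA and GCTAAGTCA) and SLC3A2 in the other (TGACTCAGC). In the inputs, NFE2L2 itself was at 235 and 206 CPM in A549 and 95.4 and 106 CPM in A549/DDP (log2 fold change -1.13, adjusted p = 0.0122 by edgeR), and KEAP1 at 41.9 and 54.5 against 129 and 116 CPM (1.34, adjusted p = 0.0136). Both genes were read in the reported fit only, so how far their calls depend on the setting is not known.

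The m6A-seq lists were used to see which of these transcripts carried called peaks in each line. Coordinates are those of the lists, in hg38, counted from 1, and a distance is from the middle of a region to the start of the RefSeq gene. The lists held 26320 and 14576 peaks in A549 and 27244 and 10661 in A549/DDP, and give no read depth, so a missing peak is not evidence of unmethylated RNA. SLC7A11, GPX1, GPX2 and GPX4 had a peak in all 4 libraries, 4 of 9 members against 28.2% of the 4243 genes with a mean TPM at or above that of the lowest member (44.6). With SLC3A2, 5 members had a peak in both A549 libraries (41.9% of those genes), and with GSS, 5 members had a peak in both A549/DDP libraries (40.5%). GSR had none in any library, as 17.1% of those genes. GCLC and GCLM, the ligase subunits, had 9 and 3 peaks, all in A549/DDP replicate 1, the library with the longest list.

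Merged over libraries, the members' peaks formed 31 regions. Peaks were chained where they overlapped, so peaks at the ends of a region need not overlap each other. Of the regions 6 held a peak of all 4 libraries, 5 of them with bases common to all 4, and 14 held a peak of a single library, 13 of the latter in A549/DDP replicate 1. In GPX1 the regions shared by all 4 were chr3:49357225-49357863 and chr3:49358060-49358305, with their middles 809 and 170.5 bases from the start, and in GPX4 the shared region was chr19:1106416-1106791, its middle 175.5 bases from the annotated end. GPX2 had its shared region at chr14:64939202-64940055, 470.5 bases from the end of the gene. SLC7A11 had one at its start (chr4:138241999-138242349, 175 bases in) and one that spans introns in the body of the gene (chr4:138171792-138182393, 651 exon bases). In the latter the A549 peaks and the peak of A549/DDP replicate 2 shared no base and were joined through A549/DDP replicate 1.

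Only 1 region was called in both A549 lists but not in A549/DDP. It lies at the 5′ end of GPX2 (chr14:64942555-64942755, 90 bases in) and reaches into the promoter window printed for that gene. The authors' p-value there was 3e-05 in A549 replicate 1 and 4.4e-06 in replicate 2. The line in which it was not called had the more GPX2 RNA. The lists give no read depth, and the cause was not tested. The whole-gene number of GPX2 peaks was 3 and 2 in A549 and 2 and 1 in A549/DDP. In both A549/DDP libraries and in no A549 library 5 regions were called. These were both regions of GSS (chr20:34928529-34928923, 294 bases from the end, and chr20:34942535-34955768, with 494 exon bases), 1 near the start of GPX4 (chr19:1104123-1104508) and 2 toward the end of SLC7A11 (chr4:138165896-138166346 and chr4:138171093-138171293). The authors' p-values in these regions ran from 1.3e-05 to 0.0063, so none is kept at or below 1e-05. The share of regions called in 1 line alone was not counted over all genes. GSS was the only member with a peak in both A549/DDP libraries and none in A549, a pattern seen in 4.78% of genes at or above the lowest member in level, and its RNA did not pass the test between the lines. The authors' p-values of the GSS peaks ran from 0.00093 to 0.0063.

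SLC3A2, the member with the highest TPM, had 3 and 4 peaks in the A549 libraries, 4 in A549/DDP replicate 1 and 0 in replicate 2. Of its 4 regions, 3 were called in both A549 libraries and A549/DDP replicate 1 (chr11:62856152-62876816, chr11:62880878-62881077 and chr11:62888377-62888875). The authors' p-values there were at most 7.2e-08 in A549 and from 0.00012 to 0.0047 in A549/DDP replicate 1. At p-values at or below 1e-05 SLC3A2 and GPX2 kept peaks in both A549 libraries alone, and SLC7A11 in A549 replicate 2 alone. GPX1 then kept a peak in all 4 libraries, GPX4 in all but A549/DDP replicate 2, and GCLC in A549/DDP replicate 1 alone. GCLM's 3 peaks had p-values from 0.0032 to 0.018, and GCLC's 9 peaks had at most 9.3e-06. Of the GCLC regions 1 (chr6:53564247-53616920) lies outside the RefSeq span of the gene. The lists give calls without read counts, so these patterns were not tested, and the A549/DDP replicates themselves differed on whether GCLC, GCLM and SLC3A2 had any peak.

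**Figure D3:**
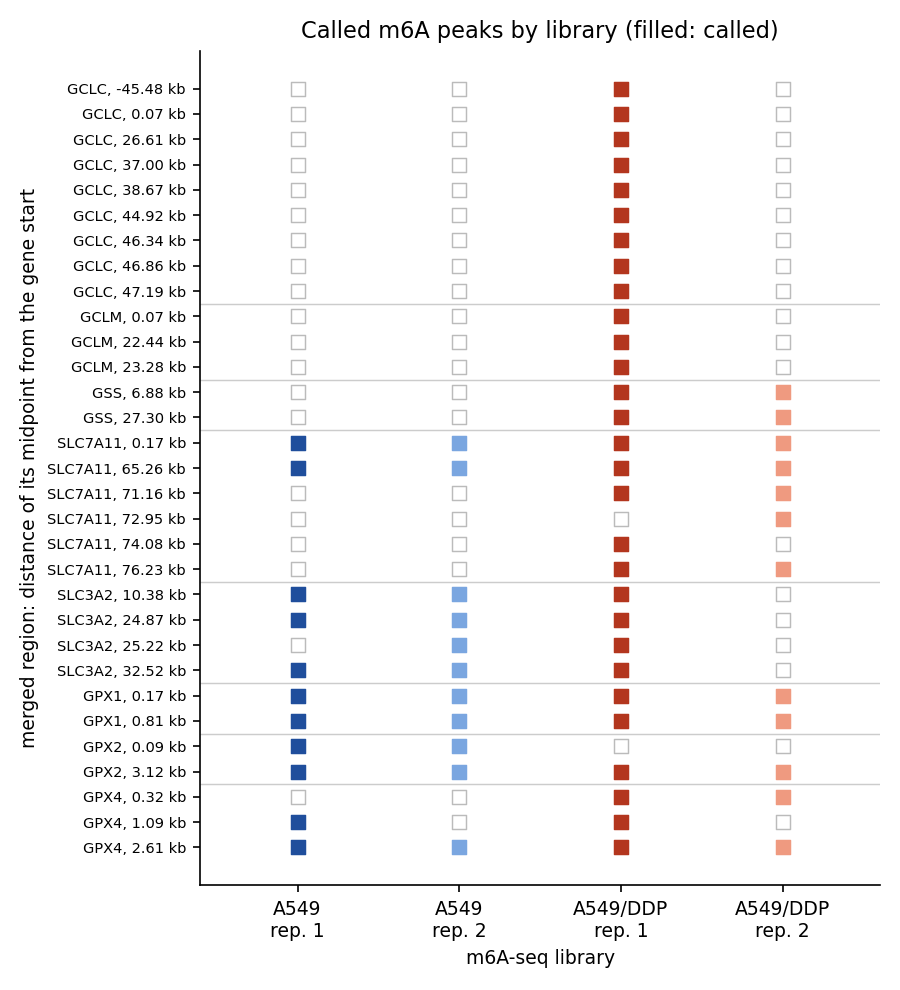
Merged m6A regions of the members (rows, named by the distance of the middle from the gene start in kb) in the 4 m6A-seq libraries (columns), filled where a peak was called. GCLC and GCLM are filled in A549/DDP replicate 1 only, SLC3A2 is empty in A549/DDP replicate 2, and 6 regions are filled in all 4, of which that in the body of SLC7A11 has no base common to all 4. GSR had no region.

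Around the members, 79 further genes were listed by role in 7 lists, and 64 passed the filter on low counts. Of these 9 were higher and 3 lower in A549/DDP with an adjusted p under 0.05 in edgeR (18.8%, beside 14.9% of all genes tested), with a median log2 fold change of 0.28. This count lay between 2 with both pairs of A549 inputs and 21 over the alternatives. Adjusted p-values in the next paragraphs are from the quasi-likelihood test of edgeR, with Benjamini-Hochberg adjustment over all genes.

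Cysteine can also come from methionine by transsulfuration. The list of cysteine supply held 10 genes, among them SLC1A1, SLC3A1, SLC7A9, CDO1 and MPST, which are not steps of that route. Of the 10 genes, 9 were tested, and 2 rose and 1 fell (median 0.32). CBS, which starts transsulfuration, had 125 and 118 CPM in A549 and 9.45 and 0.774 CPM in A549/DDP, a log2 fold change of -4.58 (adjusted p = 0.0331). Its size rests on 1 library, at -7.31 without A549/DDP replicate 1 and -3.69 without replicate 2, and it did not pass with the second pair (-2.50, adjusted p = 0.138) or both pairs of A549 inputs (adjusted p = 0.0573). MAT2A, which makes S-adenosylmethionine, rose from 253 ± 29.2 to 476 ± 20.8 CPM (SD, n = 2; 0.91, adjusted p = 0.0188), and MPST, which breaks down mercaptopyruvate, from 28.9 ± 4.68 to 73.4 ± 5.33 CPM (1.34, adjusted p = 0.0169). MAT2A did not pass without A549/DDP replicate 1 (adjusted p = 0.0775) or replicate 2 (adjusted p = 0.1003), nor with both pairs of A549 inputs (adjusted p = 0.159), and passed under 11 of 15 alternatives, MPST under 13 and CBS under 12.

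SLC3A2 pairs with light chains other than SLC7A11, of which 3 of 5 were tested. SLC7A7, the y+LAT1 carrier of basic amino acids, rose from 2.80 and 7.11 to 59.0 and 56.6 CPM (log2 fold change 3.54, adjusted p = 0.00946), and passed under all 15 alternatives. SLC7A6, its close relative y+LAT2, fell from 124 and 97.1 to 55.1 and 45.0 CPM (-1.14, adjusted p = 0.0237), although with the second pair of A549 inputs the sign turned (0.59), it did not pass without A549/DDP replicate 2 (adjusted p = 0.0972), and it passed under 9 of 15 alternatives. SLC7A5, the LAT1 carrier of large neutral amino acids, had a mean of 3302 CPM in A549 and 2362 CPM in A549/DDP and did not pass (adjusted p = 0.1498).

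Among 15 genes that break glutathione down, 11 were tested and only GGT1 passed (median 0.46). GGT1, the surface enzyme that opens the gamma-glutamyl bond of outside glutathione, rose from 77.5 ± 14.5 to 243 ± 23.7 CPM (SD, n = 2; 1.65, adjusted p = 0.00727). It shares sequence with several GGT copies, so its own level is uncertain. Of 14 further users of glutathione (other peroxidases, glutaredoxins and glyoxalases) 11 were tested and GPX3, the secreted peroxidase, rose, from 7.75 ± 1.86 to 22.4 ± 0.338 CPM (1.53, adjusted p = 0.0495). GPX3 passed under 7 of 15 alternatives, and not without A549 replicate 2 (adjusted p = 0.130), A549/DDP replicate 1 (0.0848) or A549/DDP replicate 2 (0.0755).

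GPX1, GPX2 and GPX4 contain selenocysteine. Of 8 genes that make or insert this residue, 1 passed (median 0.02), which was EEFSEC, the elongation factor that delivers it, from 8.71 ± 2.09 to 30.6 ± 4.73 CPM (SD, n = 2; 1.81, adjusted p = 0.0258). Of 16 other selenoproteins 14 were tested and 2 rose (median 0.45), SELENOW from 28.4 ± 0.387 to 68.8 ± 0.733 CPM (1.28, adjusted p = 0.0151) and SELENOO from 7.52 ± 0.583 to 26.7 ± 9.49 CPM (1.83, adjusted p = 0.0355). SELENOO did not pass without A549/DDP replicate 2 (adjusted p = 0.0998) nor EEFSEC without A549/DDP replicate 1 (adjusted p = 0.0543), and of 15 alternatives EEFSEC and SELENOW passed 11 and SELENOO 10. Of 11 genes of lipid peroxidation and of defence against it other than GPX4, 8 were tested (median 0.13). AIFM2 (FSP1), which regenerates ubiquinol at membranes, rose from 46.6 ± 0.843 to 96.2 ± 9.61 CPM (1.05, adjusted p = 0.0207), with 10 of 15 alternatives passed and not that without A549/DDP replicate 1 (adjusted p = 0.103). ALOXE3, a lipoxygenase, fell (adjusted p = 0.0210), but from 17.2 and 2.93 CPM in A549 replicates that lay far apart to 1 count in A549/DDP replicate 1 and 0 in replicate 2, so no fold is given, and without A549 replicate 1 it did not pass (adjusted p = 0.363).

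**Figure D4:**
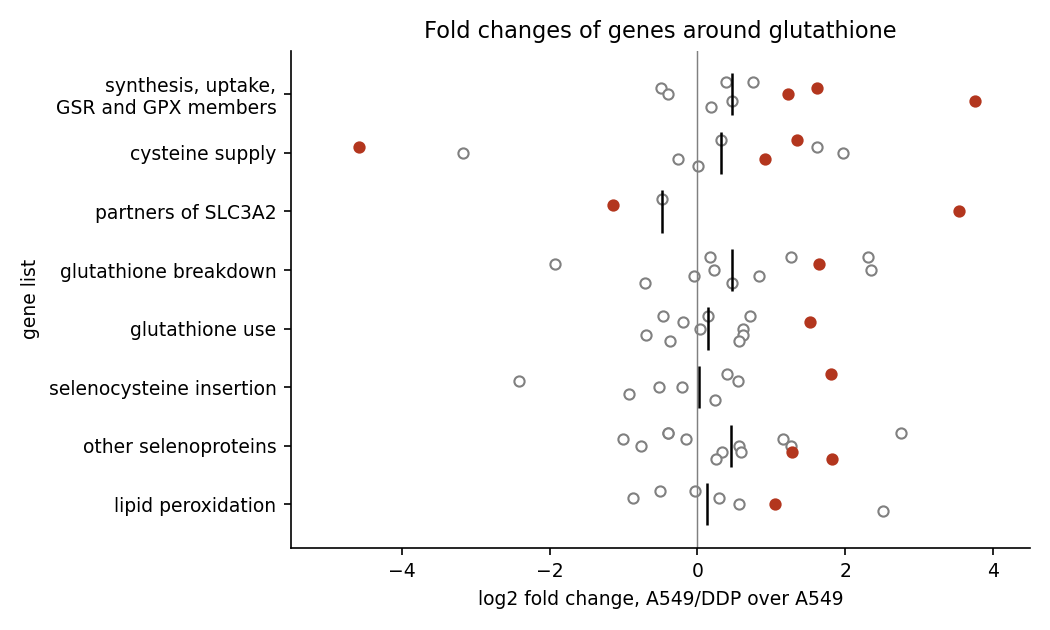
Log2 fold change of A549/DDP over A549 for the members and for the tested genes of 7 related lists, 1 circle a gene, filled where the adjusted p was under 0.05, with a bar at the median of each list (ALOXE3, which fell, is not drawn). The medians run from -0.48 for the partners of SLC3A2 to 0.48 for the members, and every list has circles on both sides of 0.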

How the data were processed

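RNA was measured in 2 input libraries per line, and called m6A peaks in 2 m6A-seq libraries per line. For each input the authors deposited expected counts, which are estimated counts, with TPM, FPKM and a weighted transcript length per gene, and the deposited counts are not normalized. The authors deposited the peaks called in each m6A-seq library with a p-value for every peak, and whether it is raw or adjusted is not stated. The submitters' processing notes name STAR, RSEM, bedtools and hg38, with no versions, and the peak caller is not given in the sources used here.

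After rounding, genes were filtered by filterByExpr and the counts TMM-scaled, and 16406 genes were tested in edgeR 4.0.16 (glmQLFit, glmQLFTest; R 4.3.3), with Benjamini-Hochberg adjustment and a threshold of 0.05. Standard errors are the log2 fold change over the square root of F. Depth ran from 29225501 to 35286514 counts in the 4 inputs, and SDs and tests, not counting intervals, carry the error. Of 58037 identifiers, 56948 were matched to a symbol. The replicate numbers were not used as a pairing, since same-numbered libraries did not deviate together (correlation 0.021). Peaks with at least 1 shared exonic base on a strand were merged. Replicate numbers follow the labels, which for the A549 m6A-seq libraries are exchanged relative to the file names.

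Alternatives were DESeq2 1.42.0, limma 3.58.1 on log2 TPM or FPKM (pseudocount 1, for TPM also 0.1) and a mean of at least 1, other filters and scaling, a replicate block, no mitochondrial genes, the second A549 pair alone or with the first, leaving out each library, peaks up to a p-value of 1e-05, lists of 10661 peaks each (ties broken with seed 4) and an overlap of 50%. The edgeR step was tested on data simulated with a much smaller spread between libraries than these had (common biological coefficient of variation 0.656). How it behaves at their spread was not tested. All 9 members, up to 4 passing genes of each list by smallest p, NFE2L2 and KEAP1 are named. Members and lists were chosen with earlier results of these data known. Tables were handled with Python 3.11.15, numpy 2.4.6 and pandas 2.3.3, and plots with matplotlib 3.10.9. The promoter sequences are from RefSeq.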

Additional observations from a re-analysis of the deposited data

How the results depend on the processing

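Against 2437 genes, 3 members and 12 listed genes past the threshold, DESeq2 gave 4329, 4 and 20, no filter 4010, 4 and 17, limma on log2(TPM + 1) 1492, 3 and 6, and on log2(TPM + 0.1) 1177, 3 and 4. The second pair of A549 inputs gave 3758, 5 and 21 and both pairs 677, 1 and 2, from 855034 and 982036 counts a library. Leaving out 1 library gave 2052 to 3809 genes, 3 to 8 members and 9 to 21 listed genes, the highest without A549 replicate 2. The replicate block gave 3536, 4 (GSR added, adjusted p = 0.0140 by edgeR) and 14; the correlation of same-numbered libraries was 0.021, so the numbers were not taken as a pairing. It changed no other member's call. The median of all genes was 0.80 with the second pair, -0.20 without A549/DDP replicate 1 and -0.11 without replicate 2. Of 135 alternative member fold changes, 117 kept direction and side of the threshold, 12 newly passed, 3 no longer passed and 3 turned sign. Among those that turned were GSS with the second pair (3.31, also past the threshold) and with both pairs (0.0759). The other was GPX4 without A549 replicate 2 (-0.0405, to 0.43 without replicate 1). Members with a peak in both A549 libraries, 5, were 3 in lists of equal size and 5 with 1 library left out. In both A549/DDP libraries they were 1 at p-values at or below 1e-05, 2 in lists of equal size, and 5 to 8 with 1 left out. The 6 regions in all 4 lists became 1, 2 and 5 to 9. The 3 non-overlapping weighted lengths became 4 to 8 with 1 library left out. The causes were not tested. Depth limits the second pair, where GSS had 1 count per library.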

Other observations

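Of the second pair of A549 inputs, too shallow for the main comparison, the members had few counts. SLC3A2 had 123 in each library, SLC7A11 25.3 and 29, GSR 17 and 22, GPX4 10 in each, GCLC 10 and 9, GCLM 3 and 7, GPX1 2 and 7, GPX2 1 and 2, and GSS 1 in each. SLC3A2 was thus the member with the most counts there, as it was in the first A549 pair.

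Among listed genes that did not pass, CHAC1, which cleaves glutathione inside the cell, had 10.6 and 13.1 CPM in A549 and 6.24 and 0 CPM in A549/DDP (adjusted p = 0.538 by edgeR). CTH, the enzyme that follows CBS in transsulfuration, had 0.0304 and 2.14 CPM in A549 and 3.58 and 4.96 CPM in A549/DDP (adjusted p = 0.511 by edgeR). The lines did not overlap for either gene, and the replicates of 1 line each lay far apart. Both genes were picked after their values were seen.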
